A study of Mus musculus with 12 samples.

Results

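The transcriptome described here is that of Min6, a beta cell line from mouse, cultured 48 h with DMSO, the solvent without compound in a study of small molecules. Its members are the 3 libraries labelled DMSO, of 12 libraries in all, and each library has a value for the same 55487 genes. The other 9 libraries came from Min6 cells given the FoxO1 inhibitor AS1842856, loperamide, or both for the same time, and none of their values enters a level given below. All 4 groups share the cell line and the 48 h of culture with solvent or compound. The labels name no genotype or DMSO concentration, and they do not say whether the 3 libraries came from separate cultures, so the spread between them may be technical. RNA was read as 50-base single reads from a poly(A)-selecting, strand-marking kit.

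Min6 is a line grown from an insulinoma, a tumour of insulin-secreting cells, of a transgenic mouse that made SV40 large T antigen under the insulin promoter. A beta cell stores insulin in dense-core granules and releases it when glucose metabolism raises ATP, closes the KATP channel and opens calcium channels. Its identity rests on transcription factors such as Pdx1, Nkx6-1 and Mafa, and on keeping the hormone and factor genes of the other islet cell types low.

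The 3 libraries held 17045589, 16904142 and 14358011 counts for replicates 1, 2 and 3, 48307742 in all. Levels are given as FPKM, the counts divided by gene length and a library factor, so that genes of different length can be set side by side. A gene was called expressed with at least 10 counts in each library and a mean of at least 1 FPKM, and silent with 0 counts in all 3. A count of 0 in all 3 libraries allows up to 0.0621 CPM (counts per 1000000 counts) of the summed total; without molecular tags, this limit covers counting error alone. By these rules 13694 genes were expressed and 28902 silent, and 20144 had a count in every library. Of 21936 protein-coding genes, 11089 (50.6%) were expressed, 5651 (25.8%) were silent, and 5196 lay between, with a median over all of them of 1.14 FPKM. The 50.6% expressed and 25.8% silent are the background for the gene lists below. Log2(FPKM + 1) values of pairs of libraries had Pearson correlations across genes of 0.979 to 0.992, with genes not being independent replicates. The biological coefficient of variation, the spread between libraries beyond counting error, was 13.6%.

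The transcriptome was led by secreted peptides and the proteins that package them. Insulin 2 (Ins2) was the most abundant transcript, followed by islet amyloid polypeptide (Iapp), which is released with insulin, and chromogranin A (Chga), a core protein of dense-core granules. Ins2 alone took 5.20%, 4.35% and 3.56% of all counts in replicates 1, 2 and 3, a mean of 4.37% ± 0.821 (SD, n = 3). The 10 most abundant genes together took 12.7%, 11.1% and 10.3%, and 50% of all counts fell in 832, 930 and 974 genes. The expressed protein-coding genes had a median level of 11.1 FPKM, with 2.37 and 57.8 FPKM at the 10th and 90th percentiles, so Ins2 lay far above the body of the distribution. Only 555 protein-coding genes reached 100 FPKM and 27 reached 1000 FPKM.

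The 25 most abundant named nuclear genes formed a short list of kinds. Hormones, neuropeptides and other secreted or granule proteins held 8 places: Ins2 at 35326 FPKM, Iapp at 21644 FPKM, cholecystokinin (Cck) at 4702 FPKM, Ins1 at 3645 FPKM, neuropeptide Y (Npy) at 3486 FPKM, transthyretin (Ttr, a carrier of thyroid hormone and retinol-binding protein) at 2112 FPKM, the opioid precursor prodynorphin (Pdyn) at 1500 FPKM and Resp18, a granule protein, at 1342 FPKM. Granins and the hormone-trimming carboxypeptidase E (Cpe) held 5 more, with Chga at 12107 FPKM, Cpe at 2536 FPKM, Scg2 at 2000 FPKM, Chgb at 1617 FPKM and Scg3 at 1236 FPKM. Protein folding was represented by the endoplasmic reticulum (ER) proteins P4hb, Calr and Pdia6 (982 to 1156 FPKM) and the cytosolic chaperones Hspa8 and Hsp90ab1 (1173 and 997 FPKM). The remaining places went to Nnat, an imprinted ER membrane protein, the amino acid transporter Slc38a5, the elongation factor Eef1a1, the metallothionein Mt2, the ribosomal protein Rplp1, ubiquitin B (Ubb) and its pseudogene Ubb-ps. The values of Ubb, Ubb-ps, Eef1a1, Rplp1 and Hspa8 are uncertain, since 55.4% to 88.2% of the 50-base stretches of their principal transcripts also occur in other annotated genes, and so is that of Mt2 (45.5%).

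**Figure D1:**
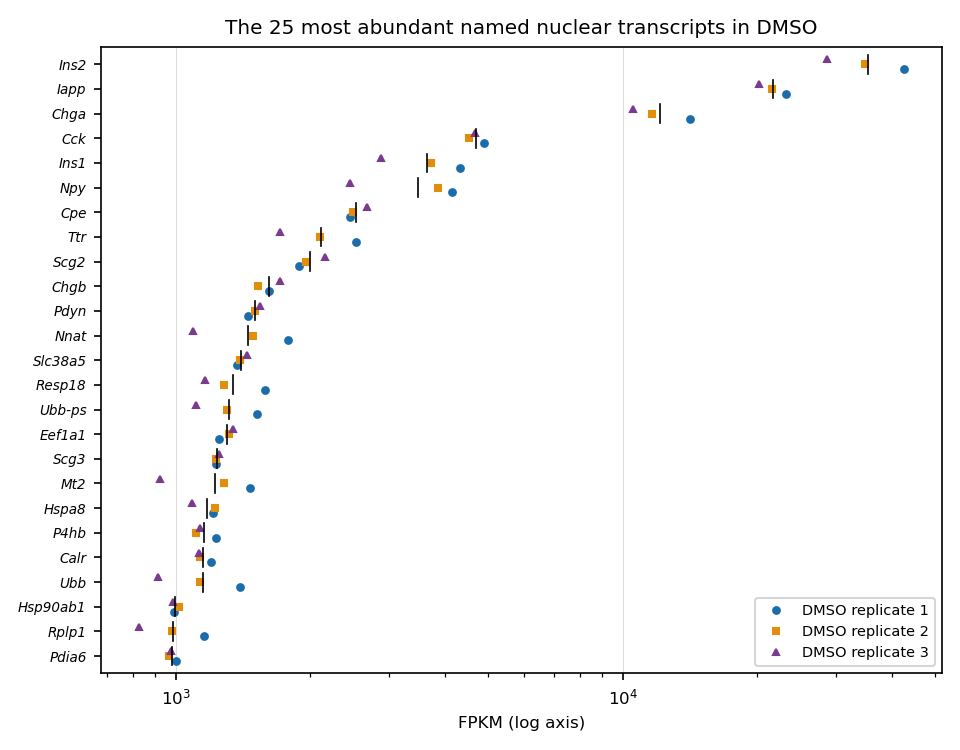
Each row is 1 of the 25 most abundant named nuclear genes, ordered by mean FPKM on a log axis, with 1 symbol for each DMSO library and a vertical bar at the mean of the 3. Ins2 (mean 35326 FPKM), Iapp (21644 FPKM) and Chga (12107 FPKM) stand apart from the other 22 genes, which lie between 982 and 4702 FPKM.

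Both insulin genes were abundant, with Ins2 well above Ins1. Ins2 (ENSMUSG00000000215, chr7:142678656-142743381, minus strand, GRCm38) was at 42514, 34896 and 28567 FPKM in replicates 1, 2 and 3, a mean of 35326 ± 6984 FPKM (SD, n = 3). Ins1 (ENSMUSG00000035804, chr19:52264297-52265476, plus strand), the retroposed copy that mice carry, was at 4329, 3728 and 2877 FPKM, a mean of 3645 ± 729 FPKM (SD, n = 3). Both genes were highest in replicate 1 and lowest in replicate 3, and their values did not overlap. The ratio of Ins2 to Ins1 varied far less than either level: it was 9.82, 9.36 and 9.93 in the 3 libraries, a mean of 9.70 ± 0.302 (SD, n = 3). That ratio rests on the lengths used for both genes. The length behind the FPKM of Ins2 was 1321 bases, against 478 bases for its principal transcript. For Ins1 these lengths were 1069 and 1062 bases. Per base of the principal transcripts the ratio was 26.6 ± 0.830 (SD, n = 3). The transcript lengths in these cells were not examined, so 26.6 is not a corrected value of 9.70. The ratio from counts, with no length correction, lay between these values and is given below. Few 50-base stretches of either transcript occur in another gene (1.63% for Ins2 and 0.691% for Ins1), so their reads can be told apart.

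Iapp, the peptide that beta cells release beside insulin, was the steadiest of the 3 beta cell hormone genes. It was at 23218, 21569 and 20145 FPKM, a mean of 21644 ± 1538 FPKM (SD, n = 3), below Ins2 in every library. Of the 26 hormone and hormone-synthesis genes listed, 16 were expressed (61.5%, against 50.6% of all protein-coding genes) and none was silent. The list summed to 82494, 71802 and 61532 FPKM, or 8.59%, 7.53% and 6.41% of counts.

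Peptides of gut and brain stood beside insulin. Cck, a gut peptide that also acts as a brain neuropeptide, was at 4898, 4528 and 4680 FPKM, and thus above Ins1 in every library. Npy, a peptide of neurons and of the fetal islet, was at 4144, 3860 and 2453 FPKM, and its values overlapped those of Ins1. Secretin (Sct), a gut hormone, was at 504, 605 and 850 FPKM, and unlike the insulins it was highest in replicate 3. Both steps of serotonin synthesis were expressed, with the decarboxylase Ddc at 149, 170 and 174 FPKM and the peripheral tryptophan hydroxylase Tph1 at 11.6, 18.2 and 19.6 FPKM, while the neuronal form Tph2 averaged 0.383 FPKM.

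Glucagon, the alpha cell hormone, was also expressed. Gcg (ENSMUSG00000000394, chr2:62474530-62483650, minus strand) was at 704, 743 and 522 FPKM, a mean of 656 FPKM, which placed it 43rd among protein-coding genes. On the scale of counts it was at 673 ± 120 CPM (SD, n = 3). It stood at 0.0187 ± 0.00239 of the FPKM of Ins2 (SD, n = 3), or at 0.00681 per base of the principal transcripts, since the length behind the FPKM of Ins2 is the longer one given above. These are bulk libraries, in which a few cells with much of a transcript and many cells with little of it cannot be told apart. The levels of Gcg and Sct overlapped, so these neighbours in the order did not differ beyond their spread.

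The hormones of delta, PP and epsilon cells were far lower than Gcg. Somatostatin (Sst) was at 103, 50.5 and 63.5 FPKM, pancreatic polypeptide (Ppy) at 29.1, 36.3 and 16.1 FPKM, and ghrelin (Ghrl) at 2, 4 and 3 counts. Urocortin 3 (Ucn3), a peptide of mature beta cells, was at 7.92, 8.89 and 6.01 FPKM, a mean of 7.61 ± 1.47 FPKM (SD, n = 3), under the 11.1 FPKM median of expressed protein-coding genes. At the bottom of the list Nts, Trh, Vip and Adcyap1, neuropeptides of brain and gut nerves, had 3 counts or fewer over all 3 libraries.

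Several of these values, but not all, were lowest in the shallowest library. Ins2, Ins1, Npy, Gcg, Iapp and Ucn3 were lowest in replicate 3, the shallowest library by total. Sct was highest there, and Cck and Sst were not lowest there. FPKM is already divided by a library factor. Most hormone transcripts are short, and in the shortest of 5 equal groups of expressed protein-coding genes (255 to 2548 bases of exon) the median gene was at -0.25 log2 units in replicate 3 relative to replicate 1. The part of this in the hormone values was not tested.

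The beta cell transcription factors were present almost as a complete set. Of the 24 listed, 22 were expressed (91.7%, against 50.6% of all protein-coding genes) and none was silent. Their summed level was 1255, 1312 and 1255 FPKM in the 3 libraries. Mafa (ENSMUSG00000047591, chr15:75745490-75748228, minus strand), a driver of insulin transcription in mature beta cells, led them at 289, 309 and 286 FPKM, a mean of 295 ± 12.7 FPKM (SD, n = 3). Pdx1 (ENSMUSG00000029644, chr5:147269959-147275848, plus strand), needed for the pancreas to form and for insulin transcription, was at 168, 175 and 192 FPKM, a mean of 179 ± 12 FPKM (SD, n = 3). Nkx6-1 (ENSMUSG00000035187, chr5:101658139-101664996, minus strand), which holds beta cells apart from alpha cells, was at 97.6, 102 and 92.3 FPKM, a mean of 97.2 ± 4.63 FPKM (SD, n = 3). The 3 factors kept this order in every library without overlap, and each varied less between libraries than Ins2 did.

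Around these stood the other factors of the endocrine pancreas. Mlxipl, the carbohydrate-sensing factor ChREBP, was at 144, 134 and 99.6 FPKM, and Isl1, a LIM-homeodomain factor of islet and nerve, at 108, 116 and 115 FPKM, so their ranges overlapped. Insm1, a zinc finger factor of endocrine cells, averaged 85.3 FPKM and Neurod1, a basic helix-loop-helix factor that acts on the insulin genes, 82.1 FPKM, again with overlap. Nkx2-2 was the most even of the set at 54.4, 55.5 and 54.6 FPKM, and it lay above Foxa2 and Pax6, which averaged 50.4 and 49.5 FPKM and overlapped each other. Foxo1, the factor that AS1842856 inhibits, was low among these at 3.59, 4.11 and 4.68 FPKM. Rfx3 and Esrrg, the lowest of the expressed members, averaged 2.77 and 2.52 FPKM, and Esrrg was at 1.62, 2.25 and 3.71 FPKM with its highest value in replicate 3. The 2 that missed the expressed level were Foxa1, with 25, 35 and 29 counts and a mean of 0.614 FPKM, and Nkx6-3, a factor of stomach, with 2 counts in all.

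**Figure D2:**
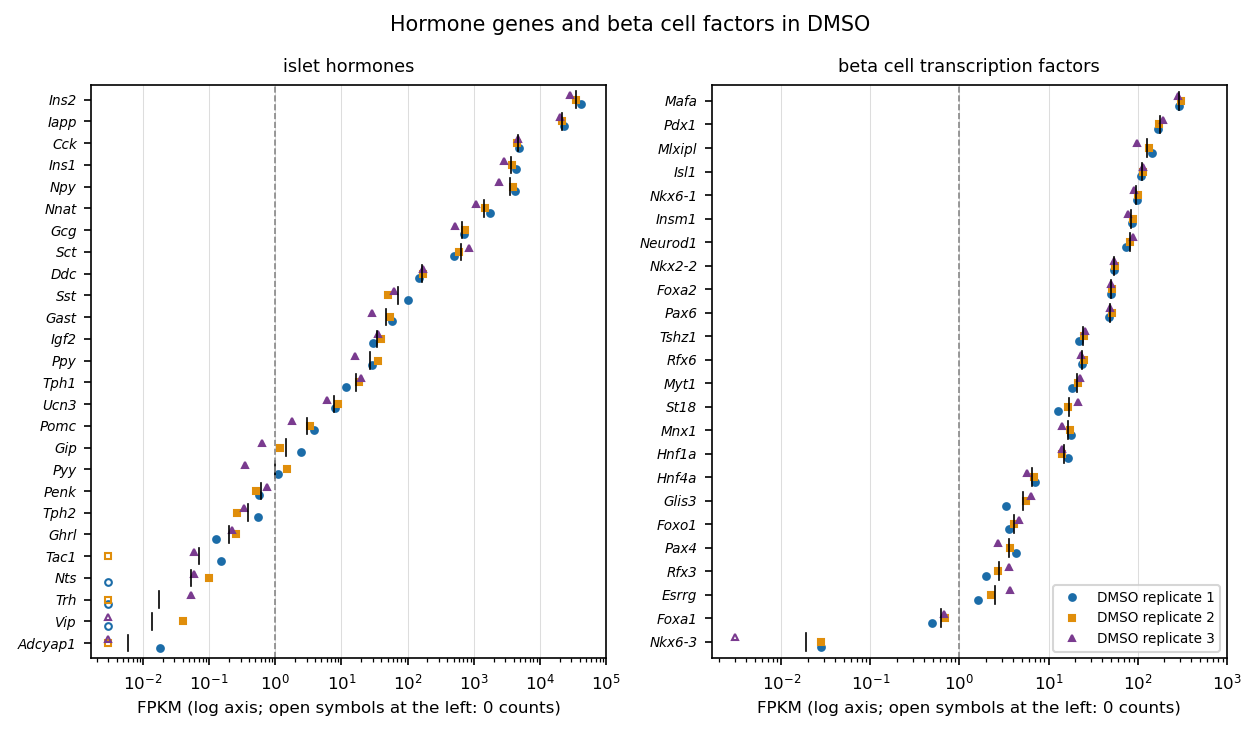
FPKM on a log axis for 26 hormone genes (left) and 24 beta cell transcription factors (right), with 1 symbol for each DMSO library, a vertical bar at the mean, a dashed line at 1 FPKM, and open symbols at the left edge for 0 counts. Hormones span from Ins2 at 35326 FPKM to Adcyap1 at 1 count, whereas 22 of 24 factors lie between 2.52 and 295 FPKM.

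Promoter sequence is shown for 5 of the genes, chosen to set abundant and silent transcripts beside each other at both ends of CG content. Each is 300 bases from RefSeq (GRCm38.p6), from 250 bases before to 50 after the annotated start, written 5′ to 3′ on the strand of the gene, with each CG dinucleotide in capitals. Ins1 (chr19:52264047-52264346, plus strand) held 0 CG and was at 3645 FPKM, and Alb (chr5:90460620-90460919, plus strand), the albumin gene of liver, held 3 CG and had 0 counts. Gcg (chr2:62483604-62483903, minus strand) held 7 CG.
Ins1: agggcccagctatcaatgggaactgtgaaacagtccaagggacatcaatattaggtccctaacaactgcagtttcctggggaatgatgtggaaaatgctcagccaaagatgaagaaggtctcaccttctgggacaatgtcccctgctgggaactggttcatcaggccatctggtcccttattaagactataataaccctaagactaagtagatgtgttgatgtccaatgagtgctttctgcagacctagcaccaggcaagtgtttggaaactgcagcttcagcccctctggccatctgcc
Alb: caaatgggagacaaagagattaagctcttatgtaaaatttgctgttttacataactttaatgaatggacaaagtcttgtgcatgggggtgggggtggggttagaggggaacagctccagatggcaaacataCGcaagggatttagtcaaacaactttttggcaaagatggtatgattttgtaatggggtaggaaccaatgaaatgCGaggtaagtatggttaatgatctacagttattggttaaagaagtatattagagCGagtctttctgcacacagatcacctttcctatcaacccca
Gcg: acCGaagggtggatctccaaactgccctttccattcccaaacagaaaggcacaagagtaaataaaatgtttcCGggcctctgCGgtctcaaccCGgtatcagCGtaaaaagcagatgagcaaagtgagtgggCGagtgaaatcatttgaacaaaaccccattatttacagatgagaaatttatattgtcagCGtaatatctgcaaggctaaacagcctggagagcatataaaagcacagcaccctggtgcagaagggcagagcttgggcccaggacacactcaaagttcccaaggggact
At the other end, Nkx6-1 (chr5:101664662-101664961, minus strand) held 40 CG and was expressed at 97.2 FPKM. Yap1 (chr9:8004547-8004846, minus strand), a growth co-activator that beta cells lack, held 49 CG and had 0 counts in every library.
Nkx6-1: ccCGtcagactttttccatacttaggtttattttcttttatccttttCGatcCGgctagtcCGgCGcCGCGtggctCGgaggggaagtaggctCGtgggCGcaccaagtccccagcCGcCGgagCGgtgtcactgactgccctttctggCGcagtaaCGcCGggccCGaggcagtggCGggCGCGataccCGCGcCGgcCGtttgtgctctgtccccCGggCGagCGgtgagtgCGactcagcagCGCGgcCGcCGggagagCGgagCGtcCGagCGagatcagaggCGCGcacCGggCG
Yap1: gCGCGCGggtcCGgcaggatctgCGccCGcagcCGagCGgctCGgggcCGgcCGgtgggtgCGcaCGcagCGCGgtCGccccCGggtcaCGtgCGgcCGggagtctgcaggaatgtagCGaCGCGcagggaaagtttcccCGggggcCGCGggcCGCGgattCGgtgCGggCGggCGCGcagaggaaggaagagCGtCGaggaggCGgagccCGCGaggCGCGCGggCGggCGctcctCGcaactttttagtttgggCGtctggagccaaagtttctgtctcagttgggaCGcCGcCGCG
The median over the 16918 protein-coding genes with a RefSeq promoter was 14.0 CG in 300 bases. An expressed and a silent gene stand at each end because the genes were chosen that way. The 5 windows therefore say nothing about how CG content goes with level. The letters TATAAA, searched on both strands, occurred in 13.1% of all those promoters, and in 2.93% they began 40 to 11 bases before the start on the strand of the gene. Of the 5 windows printed, that of Gcg held them in that place, and the other 4 held them nowhere within their 300 bases. The windows rest on annotated starts, and where transcription starts in these cells was not examined. A window without these letters therefore does not mean a promoter without them. A match is a description of the letters, not of a bound site.

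Among the markers of alpha, delta and PP cells, several secreted or membrane proteins were expressed, while factors such as Hhex and Pou3f4 were absent or nearly so. Of 18 genes listed, 10 were expressed (55.6%) and 3 were silent, a share of expressed genes near the 50.6% of all protein-coding genes, and the list summed to 4046, 3642 and 3317 FPKM. Most of that sum was Ttr, at 2524, 2099 and 1714 FPKM, and Slc38a5, a glutamine transporter of alpha cells that was highly even at 1367, 1390 and 1442 FPKM. The somatostatin receptor Sstr3 averaged 58.7 FPKM, the ETS factor Etv1 31.1 FPKM, the arginine transporter Slc7a2 19.5 FPKM and the vitamin D binding protein Gc 15.8 FPKM.

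Of the transcription factors of those lineages, some were at or near 0 and others were expressed. Hhex, which is needed in delta cells, and Mc4r, a melanocortin receptor, had 0 counts in all 3 libraries. Pou3f4, an alpha cell POU factor, had 1, 2 and 7 counts, and was therefore below 0.1 FPKM on average, at 0.0798 FPKM. Irx1 and Irx2, which are Iroquois factors of alpha cells, were expressed at 5.97, 4.80 and 6.43 FPKM and at 5.51, 3.61 and 5.42 FPKM.

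Progenitor and dedifferentiation markers were mostly missing. Of 18 listed, 5 were expressed (27.8%) and 8 were silent (against 25.8% silent among all protein-coding genes). The silent ones were Neurog3, the factor that starts endocrine differentiation, Sox17 and Gata6 of early endoderm, Ptf1a of acinar precursors, Onecut1 of liver and pancreas buds, and the pluripotency factors Sox2, Pou5f1 and Nanog. Onecut1 is uncertain, as 54.4% of its 50-base stretches occur in another gene. Sox9, a factor of pancreatic progenitors and ducts, had 0, 1 and 1 counts, and Aldh1a3, a retinaldehyde dehydrogenase used as a sign of failing beta cells, had 9, 7 and 8 counts, a mean of 0.120 ± 0.0185 FPKM (SD, n = 3). Of the 5 that were expressed, the tetraspanin Cd81 was at 63.2, 68.3 and 65.7 FPKM. The others, Myc, Hes1, Gata4 and Onecut2, averaged 7.87, 7.51, 5.12 and 4.33 FPKM.

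**Figure D3:**
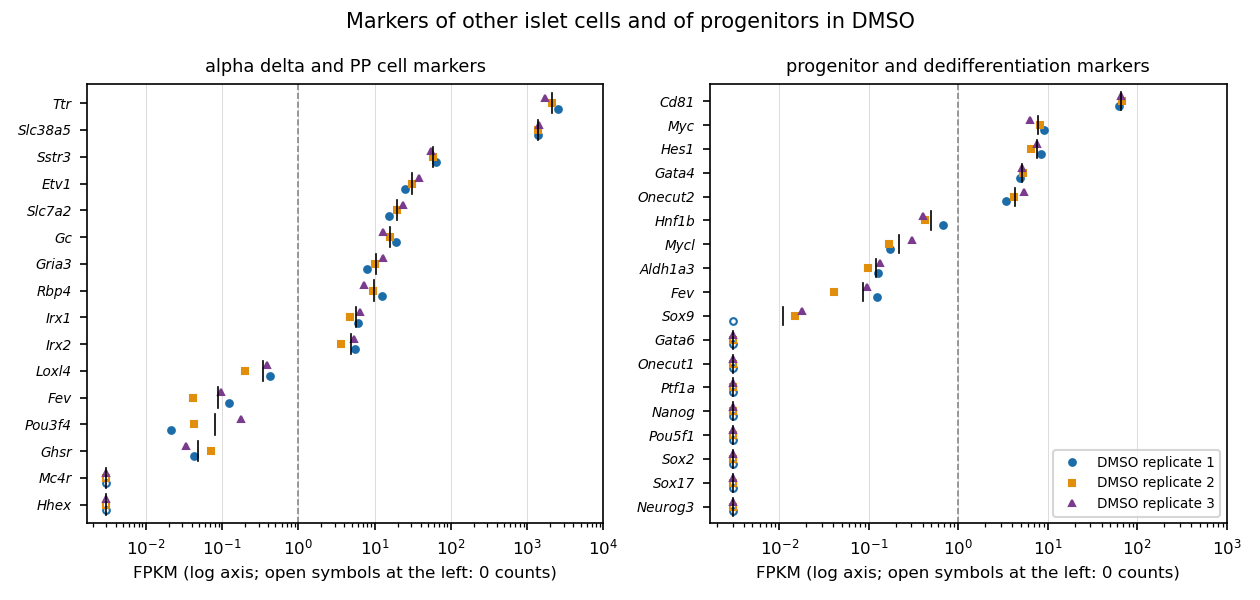
FPKM on a log axis for 16 of the 18 markers of other islet cell types (left) and 18 progenitor or dedifferentiation markers (right), with 1 symbol for each DMSO library, a vertical bar at the mean and a dashed line at 1 FPKM. Open symbols at the left edge mark 0 counts, where Hhex and Mc4r lie on the left and 8 genes from Gata6 to Neurog3 on the right.

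The machinery that makes and packs hormones was present without a gap. All 20 prohormone processing and granule genes were expressed, with a median of 231 FPKM, and together they took 5.41%, 5.06% and 5.07% of counts. Of the prohormone convertases, which cut proinsulin and proglucagon, Pcsk2 was at 890, 836 and 838 FPKM and Pcsk1 at 122, 130 and 139 FPKM. Chga was at 14144, 11626 and 10551 FPKM, Cpe at 2449, 2486 and 2674 FPKM, and the granule membrane phosphatase Ptprn at 996, 891 and 885 FPKM. Scg3, a granin that binds Chga, was the steadiest of these at 1227, 1231 and 1249 FPKM. The granule zinc transporter Slc30a8 was at 165, 189 and 237 FPKM, and the ER oxidase of beta cells Ero1lb at 330, 413 and 469 FPKM. The lowest of the 20 were Cpd, Furin, Slc30a5 and Srp9, processing or secretory genes used by most cells, at 22.2 to 66.1 FPKM.

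Protein folding in the ER was similarly complete. All 25 genes of ER chaperones and the unfolded protein response were expressed, with a median of 147 FPKM, and they summed to 7860, 7504 and 7688 FPKM. The disulfide isomerases P4hb and Pdia6 averaged 1156 and 982 FPKM, calreticulin (Calr) 1153 FPKM, Hsp90b1 912 FPKM and Hspa5, the chaperone BiP, 779 FPKM. Among the sensors and factors of the response, Atf4 was at 347, 307 and 241 FPKM and Xbp1 at 127, 123 and 124 FPKM, while Atf6 and Eif2ak3 averaged 22.7 and 23.1 FPKM. Ddit3, the stress factor CHOP, was at 58.8, 46.1 and 33.6 FPKM, and Atf3 was the lowest of the list at 3.05 FPKM.

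The glucose sensing and release genes were largely expressed, but the usual glucose transporter was near absent. Of 27 genes of glucose sensing and exocytosis, 22 were expressed (81.5%, against 50.6% of all protein-coding genes) and none was silent. Slc2a2, the glucose transporter GLUT2 of rodent beta cells, had only 33, 34 and 20 counts, a mean of 0.339 ± 0.0654 FPKM (SD, n = 3). Slc2a1 (GLUT1) was at 7.59, 6.88 and 6.53 FPKM, above Slc2a2 in every library, and Slc2a3 (GLUT3) had 4 counts in all. Downstream of uptake, G6pc2, the glucose-6-phosphatase of islets, was at 902, 849 and 876 FPKM. G6pc2 was thus the highest gene of this list.

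The KATP channel subunits Abcc8 and Kcnj11, which couple ATP to membrane potential, were nearly the same in the 3 libraries, at 308, 306 and 298 FPKM and at 77.0, 76.7 and 77.2 FPKM. The calcium channel subunits Cacna1c and Cacna1d averaged 5.74 and 4.22 FPKM, and Cacna1a missed the expressed level at 0.342 FPKM. Syt13, a synaptotagmin, was at 393, 411 and 420 FPKM, the SNARE protein Snap25 at 125, 124 and 116 FPKM, and the granule docking GTPase Rab3a averaged 87.6 FPKM. Doc2b, a calcium sensor of exocytosis, had 1, 1 and 0 counts.

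Receptors through which nutrients, hormones and cytokines act on beta cells were present in part. Of 31 listed, 21 were expressed (67.7%, against 50.6% of all protein-coding genes) and 2 were silent. The interleukin 1 receptor Il1r1 led at 134, 142 and 153 FPKM, and its range overlapped that of the GLP-1 receptor Glp1r at 128, 134 and 129 FPKM. The fatty acid receptor Ffar1 was even at 103, 104 and 104 FPKM, and the adrenergic receptor Adra2a, which restrains insulin release, averaged 44.9 FPKM. The TNF receptor Tnfrsf1a averaged 33.5 FPKM. At the low end Lepr, the leptin receptor, and Gpr119 averaged 0.0531 and 0.0384 FPKM. Loperamide is a ligand of the mu opioid receptor, and that receptor, Oprm1, had 35, 24 and 26 counts, a mean of 0.276 ± 0.0525 FPKM (SD, n = 3). The delta receptor Oprd1 had 10, 21 and 19 counts, and the kappa receptor Oprk1 had none, while its ligand precursor Pdyn was at 1451, 1505 and 1546 FPKM.

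Genes that beta cells are known to keep low, called disallowed genes, were here near the background of all protein-coding genes. Of 27 listed, 12 were expressed (44.4%, against 50.6%), 4 were silent, and the median was 0.684 FPKM, against 1.14 FPKM. Ldha, which turns pyruvate into lactate, had 20, 21 and 18 counts, a mean of 0.684 ± 0.0174 FPKM (SD, n = 3), and Slc16a1, the lactate and pyruvate carrier MCT1, was at 4.21, 4.46 and 6.30 FPKM. Itih5, Cd302, Slc16a7 and Yap1 were silent, and Nfib, Hk3, Maf and Pdgfra had 1 to 4 counts in all. Hk1, a low-Km hexokinase, was at 8.22, 7.49 and 8.18 FPKM. Oat, ornithine aminotransferase, stood apart at 48.2, 40.8 and 42.1 FPKM, and Rest, the repressor of neuronal genes, was just above the limit at 1.11 FPKM.

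Beyond lactate production, central carbon metabolism was broadly expressed. Of 20 glycolytic genes 16 were expressed, led by pyruvate kinase (Pkm) at 437, 428 and 415 FPKM and aldolase A (Aldoa) at 284, 252 and 223 FPKM. Tpi1 averaged 156 FPKM and Gpi1, the isomerase of the second step, 73.5 FPKM, while the germ cell lactate dehydrogenase Ldhc had no counts. Of 28 mitochondrial metabolism genes 25 were expressed, with a median of 44.3 FPKM. The ATP synthase subunit Atp5b was at 606, 610 and 570 FPKM, cytochrome oxidase subunit Cox4i1 averaged 362 FPKM, and the malate dehydrogenases Mdh2 and Mdh1 averaged 213 and 210 FPKM with overlapping values. Pyruvate carboxylase (Pcx), which refills the citric acid cycle in beta cells, was at 45.6, 44.8 and 43.3 FPKM, and malic enzyme Me1 averaged 39.1 FPKM. Pdk4, a brake on pyruvate dehydrogenase, and Cox4i2, a lung form of the oxidase subunit, were silent.

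Genes of cell division were expressed throughout, while some of the drivers of G1 were missing. All 20 proliferation genes were expressed, with a median of 42.5 FPKM, and they summed to 1054, 1118 and 982 FPKM. The replication clamp Pcna was at 216, 236 and 192 FPKM, the helicase subunit Mcm2 averaged 87.9 FPKM, the topoisomerase Top2a 78.9 FPKM, and Mki67, the Ki-67 antigen of cycling cells, was at 57.8, 59.4 and 60.5 FPKM. Of 18 cell cycle regulators 16 were expressed, and the 2 others were G1 drivers. Ccnd1 (cyclin D1) had 1 count in all and Cdk6 had 6 counts, whereas Ccnd2 was at 11.2, 18.5 and 21.5 FPKM and Cdk4 at 130, 114 and 96.7 FPKM. For Ccnd1, 27.2% of 50-base stretches occur in another gene, which leaves most of the transcript its own. Inhibitors of these kinases were expressed at the same time: Cdkn2c was at 134, 144 and 132 FPKM, and Cdkn2a, Cdkn2d and Cdkn1b averaged 73.9, 60.6 and 51.2 FPKM. Trp53, whose protein large T antigen binds, averaged 34.0 FPKM, and Rb1 7.59 FPKM.

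Markers of stromal and blood cells were near 0 in all 3 libraries. None of 12 mesenchymal and stellate markers was expressed, and their summed level was 0.579 to 0.819 FPKM over the 3 libraries. Vimentin (Vim), a filament of nearly all cultured mesenchymal cells, had 0, 0 and 1 counts, and Acta2, Col3a1, Lum and Twist1 had none. Of 9 endothelial markers, only Esam was expressed, at 4.16 FPKM, and Cdh5, Kdr and Cldn5 were silent. The list summed to 4.24 to 5.02 FPKM. Of 12 leukocyte markers Lyz2 and Cd68 were expressed, at 1.92 and 1.64 FPKM, while Adgre1, Tyrobp and Spi1 were silent and Ptprc, the pan-leukocyte antigen CD45, had 1 count. That list summed to 3.34 to 5.11 FPKM.

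Exocrine enzymes were likewise near 0, with 1 transcription factor apart. Of 18 acinar markers 2 were expressed (11.1%) and 8 were silent, among them Cpa1, Cela3b, Pnlip, Prss2 and Reg1. The sum of 28.5 to 36.7 FPKM was mostly Bhlha15 (Mist1), a factor of secretory cells, at 32.0, 29.0 and 26.6 FPKM. Prss1, Try4 and Try5 were also silent but share 53.9% to 65.6% of their 50-base stretches with other genes. Of 12 ductal markers 5 were expressed (41.7%, against 50.6% of all protein-coding genes). These were the keratins Krt8, Krt7 and Krt18 at 94.9, 71.4 and 10.7 FPKM, Epcam at 27.2 FPKM and osteopontin (Spp1) at 3.96 FPKM. Krt19, Cftr and Car2, which define ducts more closely, were silent.

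Of the lists for non-islet cell types, the neuronal one had the largest share of expressed genes. Of 23 listed, 16 were expressed (69.6%, against 50.6% of all protein-coding genes) and 3 were silent. The list summed to 840, 736 and 720 FPKM. The vesicle protein synaptophysin (Syp) was at 276, 239 and 247 FPKM, the stathmin Stmn3 averaged 107 FPKM, the RNA-binding Celf3 75.3 FPKM, neurofilaments Nefl and Nefm 59.1 and 52.0 FPKM and synapsin 1 (Syn1) 57.4 FPKM. Tyrosine hydroxylase (Th), the first enzyme of dopamine synthesis, was at 57.7, 39.0 and 35.7 FPKM. Rbfox3, the marker NeuN of mature neurons, averaged 0.153 FPKM, and Slc32a1 and Slc6a4, which carry GABA and serotonin, were silent. In glial (8), erythroid (8), hepatocyte (11), muscle (11) and germ cell or pluripotency (12) lists, 3, 1, 3, 1 and 1 members were expressed. The highest of these were Mbp at 4.83 FPKM, Epor at 1.03 FPKM, Apoa2 at 24.7 FPKM, Acta1 at 1.53 FPKM and Lin28a at 1.71 FPKM, while Gfap, Alb and Fgb had 0 counts.

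**Figure D4:**
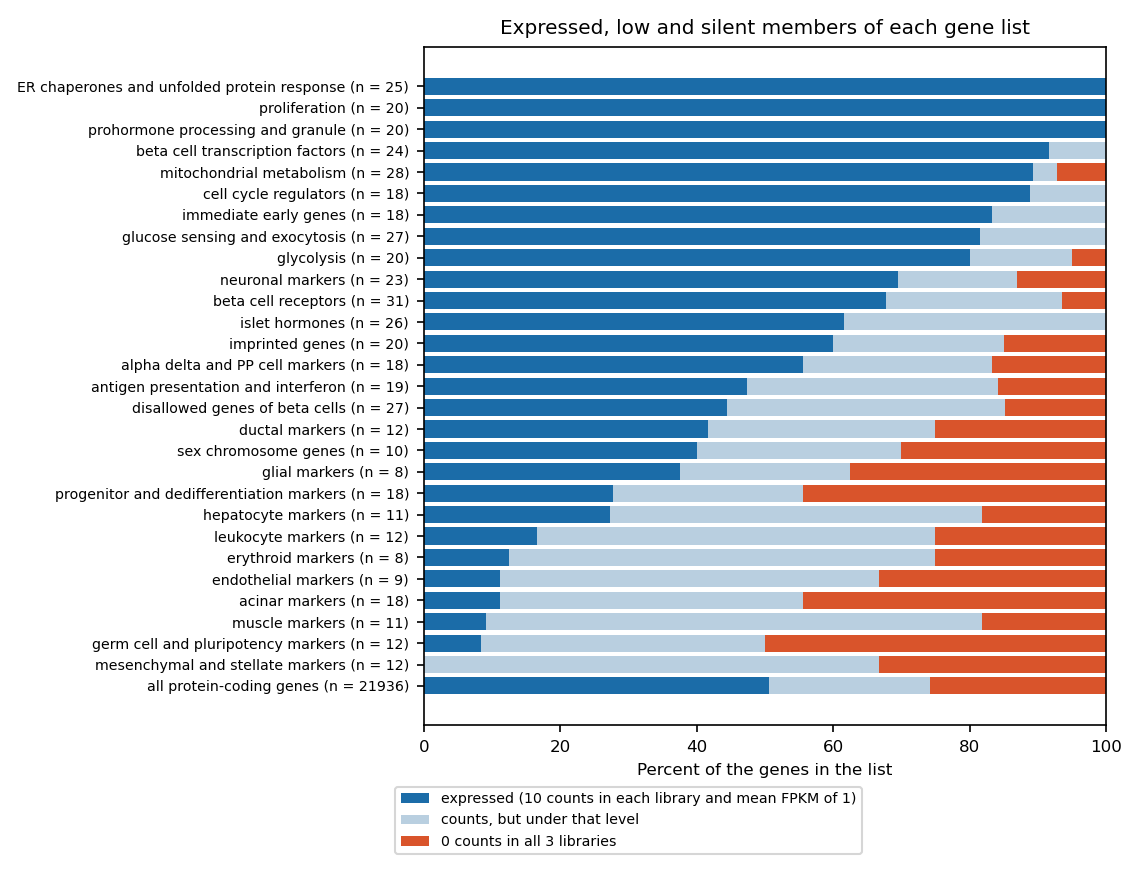
Each bar is a gene list of the text, or all 21936 protein-coding genes at the bottom, split into the percent of its genes that were expressed (dark blue), had counts under that level (light blue) or had 0 counts in all 3 DMSO libraries (orange). The ER, proliferation and prohormone lists are expressed throughout, and the acinar, endothelial, muscle, germ cell and mesenchymal lists have at most 11.1% expressed, against 50.6% of all protein-coding genes.

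Silence fell by family, against 25.8% silent and 50.6% expressed among all protein-coding genes. Of 1138 olfactory receptor genes, 1065 (93.6%) were silent and 3 were expressed, and of 35 bitter taste receptors 34 (97.1%) were silent. Vomeronasal receptors of type 1 were silent in 206 of 231 cases, keratin-associated proteins in 54 of 57 and kallikreins in 22 of 27. No Hox gene was expressed, 29 of 39 (74.4%) were silent, and the largest summed count of any was 4. Families with household roles were at the other end: 46 of 47 complex I subunits, 77 of 78 mitochondrial ribosomal proteins and 37 of 40 proteasome subunits were expressed. Within the receptor families there were exceptions, the clearest being the olfactory receptor Olfr1259 at 20.5 FPKM with 4011 counts over the 3 libraries. Of 172 protein-coding genes of the Y chromosome, 170 (98.8%) were silent and 0 were expressed. Genes with near-identical copies can stand at 0 counts for that reason, and this was not examined by family or for the Y chromosome.

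Some genes stood at or near 0 although every cell uses them, and each of these has near-identical copies. Gapdh, the glycolytic enzyme often used as a reference gene, had 83, 86 and 63 counts (3.39 ± 0.262 FPKM; SD, n = 3), and 90.4% of the 50-base stretches of its principal transcript occur in other genes. The mitochondrial genes mt-Co2 and mt-Atp6 had 0 counts and mt-Co3 had 1, with 100%, 99.5% and 99.9% of their stretches also found in other annotated genes. In contrast mt-Cytb and mt-Nd1, which share none, were at 3952, 3091 and 2751 FPKM and at 3314, 2630 and 2324 FPKM. The pseudogene Gm29216 on chromosome 1, 97.1% of which is shared, was at 9368, 7217 and 5961 FPKM. Levels of such genes, Gapdh and mt-Co2 included, are therefore uncertain. Those with 0 counts, such as mt-Co2 and mt-Atp6, are counted as silent above, although a 0 there may not mean absence. Among silent protein-coding genes 1149 (20.6%) shared at least 50% of their stretches with another gene, against 482 (4.35%) of the expressed ones. For the silent genes Hhex, Sox17, Yap1, Cdh5, Alb and Krt19 the share was under 2%. Igf2 (97%), Eno1 (72.2%), Pgk1 (68%) and Actg1 (56.7%) carry the same limit.

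The genes that differed most between the 3 libraries were mostly long, with exceptions. Over the 9570 genes averaging 10 CPM or more the median coefficient of variation was 9.68%, and the 90th percentile was 21.8%. The 12 most variable named genes were Plcxd3, Sytl5, Hipk2, Lcor, Klhl11, Aff2, Unc5c, Pdpr, Actg-ps1, Lysmd3, Atp13a3 and Atp7a, and all 12 were highest in replicate 3. Plcxd3, a phospholipase-domain gene, was at 4.57, 12.9 and 28.6 CPM (coefficient of variation 79.5%), and Atp7a, the copper pump, at 20.6, 36.6 and 64.1 CPM (54.4%). Of the 40 most variable genes 39 were highest in replicate 3, and the median exon length of the 40 was 7982 bases. For the middle of 5 equal groups of expressed protein-coding genes by length, the median was 4514 bases. Among the 12 named, Sytl5, Klhl11 and Actg-ps1 were short, at 2301, 2393 and 1124 bases.

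That pattern was graded by length and base composition across all expressed protein-coding genes. The genes were split into 5 equal groups by length and, separately, by GC. From the shortest to the longest group the median log2 ratio of replicate 3 to replicate 1 was -0.25, -0.11, 0.00, 0.12 and 0.33. From the group lowest in GC to the highest it was 0.32, 0.17, 0.02, -0.13 and -0.24. Same-numbered libraries of the other 3 groups differed in the same directions, by 0.16 to 0.26 in the longest group and by -0.19 to -0.16 in the shortest. By GC their differences were smaller than in DMSO, at 0.07 to 0.14 in the group lowest in GC and -0.09 to -0.07 in the highest. Of the marker sums given above, those of the leukocyte, acinar and mesenchymal lists were lowest in replicate 3, and that of the endothelial list was highest there, at 5.02 FPKM. The part of length and GC in the differences between libraries was not tested.

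**Figure D5:**
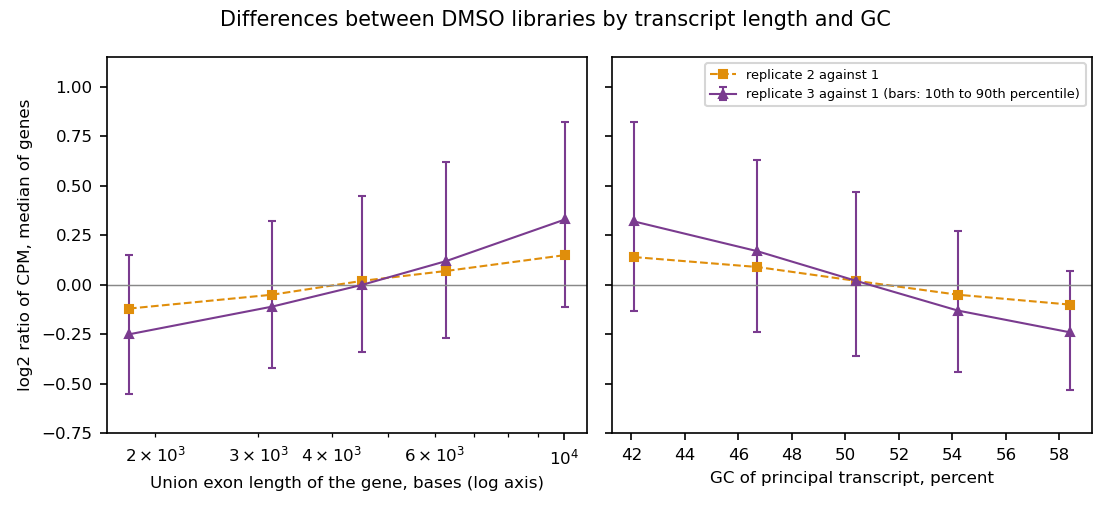
Median log2 ratio of CPM between DMSO libraries in 5 equal groups of the expressed protein-coding genes by exon length (left, bases on a log axis) and by GC of the principal transcript (right, percent), with bars from the 10th to the 90th percentile of genes for replicate 3 against 1. The ratio of replicate 3 to 1 goes from -0.25 in the shortest to 0.33 in the longest group, and from 0.32 at low GC to -0.24 at high GC, and the ratio of replicate 2 to 1 lies nearer 0 at both ends.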

How the data were processed

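RNA from the 3 DMSO libraries of Min6 cells was sequenced as 50-base single reads with a strand-marking mRNA kit, per the labels' protocols. The authors deposited a table of raw gene counts and a table of FPKM values. STAR 2.7.5a, Picard 2.19.2, DESeq2 and the builds GRCm38 and mm10 are named in the submitters' processing notes. No source used here gives the counting tool, its strand setting or its treatment of reads with several matches, so reads of a gene and of an antisense partner may not be told apart. In 10321 genes checked, the deposited FPKM equalled the count divided by a gene length and a library factor, with a largest deviation of 8.88e-14%. That length was 1.01 times the union of exons at the median gene and clearly shorter in 38.0% of genes, and 98.8% of genes lay where GENCODE M21 places them. The totals were 14358011 to 17045589 counts per library.

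Groups came from the sample titles. One group was described, so no contrast was tested, and 3 paired values could not go below an exact p of 0.25. Expressed meant at least 10.0 counts in each library and a mean of at least 1.0 FPKM, and silent 0 counts in all 3. Neighbours in an order were called different where their 3 values did not overlap. The spread between libraries was the common dispersion of edgeR 4.0.16 (R 4.3.3) with an intercept only, which was tested on simulated data. CPM values used edgeR's TMM normalization in the marker levels and the variable genes. Principal transcripts of GENCODE M21 were cut into 50-base stretches to find those present in other genes. Promoters came from RefSeq (GRCm38.p6). A promoter was matched for 77.1% of protein-coding genes, under the share needed to compare expressed with silent genes, so that comparison is void and was left out.

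The members and the 28 gene lists (496 of 497 listed entries matched, some through older symbols) were chosen with earlier results of these data known. Where a symbol had several identifiers, the one with the most counts was used. The rule for named genes took the 6 markers Ins1, Ins2, Mafa, Pdx1, Nkx6-1 and Gcg, the 25 genes with the highest mean FPKM, the 12 most variable, and in each list up to 6 of the highest, 4 of the lowest above 0 and 12 of the silent members, all without predicted-gene symbols. Named outside that rule, after their values were seen, were Ddc, Ghrl, Ppy, Sct, Sst, Tph1, Tph2, Ucn3, Foxa2, Foxo1, Neurod1, Nkx2-2, Pax6, Irx1, Irx2, Ero1lb, Pcsk1, Pcsk2, Slc30a8, Atf4, Ddit3, Xbp1, Cacna1c, Cacna1d, Kcnj11, Slc2a1, Ldha, Rest, Gapdh, Me1, Pcx, Ccnd2, Th, Actg1, Olfr1259, Gm29216 and the mitochondrial genes. Some members of the lists are not reported here by name. Alternatives were other scalings, thresholds, lengths and leaving out each library.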

Additional observations from a re-analysis of the deposited data

How the results depend on the processing

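With single libraries left out, 20841 to 21257 genes had a count in every remaining library (20144 with all 3), 29971 to 30412 genes were silent (28902), the 10 most abundant genes took 10.7% to 11.9% of counts and Ins2 3.95% to 4.77%. The ratio of Ins2 to Ins1 ran from 9.59 to 9.88, the ratio of Gcg to Ins2 from 0.0174 to 0.0198, and the coefficient of variation between libraries from 9.50% (without replicate 3) to 18.6% (without replicate 2), against 13.6%. The unit moved several values. As a share of summed FPKM, the 10 most abundant genes took 20.2% and Ins2 6.82%. From counts, with no length correction, the ratio of Ins2 to Ins1 was 12 and that of Gcg to Ins2 0.0155; per base of the principal transcripts, an alternative chosen after seeing the data, they were 26.6 and 0.00681. The threshold moved the gene numbers: 15187 genes had 10 counts in each library, 14318 had 1 CPM in each and 14239 a mean of 1 FPKM, and 34430 genes had at most 3 counts in all and 35480 a mean under 0.1 FPKM. The levels of Ins1, Ins2, Mafa, Pdx1, Nkx6-1 and Gcg moved by under 1 SD in 30 of 30 alternatives of scaling and single libraries. Leaving out 1 of 3 libraries cannot move a mean by 1 SD, so only the alternatives of scaling could have differed. Depth limits genes at a few counts, whose order is not known. No paired analysis was possible because only the DMSO group was described and no test was made.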

Other observations

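Imprinted genes ranged from abundant to silent. Of 20 listed, 12 were expressed and 3 were silent. Dlk1, a growth-restraining surface protein, was at 308, 375 and 505 FPKM, and the zinc finger gene Peg3 at 136, 170 and 216 FPKM, with the highest value of each in replicate 3. Gnas, the stimulatory G protein subunit, averaged 376 FPKM. H19 had 1 count in all, Mest had 1 and Grb10 had 12, and Peg10, Sgce and Phlda2 had none. Igf2 was listed at 35.0 FPKM, a value that is uncertain because 97% of its 50-base stretches occur in another gene. Of the genes on the sex chromosomes, Xist had 7, 14 and 4 counts, Ddx3y had 2 in all, Uty, Kdm5d and Eif2s3y had 0, and the X-linked Ddx3x was at 77.7, 92.7 and 116 FPKM.

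Of the antigen presentation genes, the class I chains H2-K1, H2-D1 and B2m were expressed. H2-K1 was at 216, 213 and 225 FPKM, H2-D1 averaged 106 FPKM and their partner B2m 27.1 FPKM, while the class II gene H2-Aa and its regulator Ciita were silent. Nlrc5, a regulator of class I genes, missed the expressed level at 0.155 FPKM. Interferon-induced genes were low, with Cxcl10 and Ifit1 averaging 0.256 and 0.277 FPKM and Ifnb1 at 0 counts. Immediate early genes, which cells induce within minutes of a stimulus, were expressed in 15 of 18 cases (83.3%, against 50.6% of all protein-coding genes). Egr1 was at 57.9, 90.7 and 63.9 FPKM, Fos at 17.4, 32.0 and 31.6 FPKM and Nr4a1 at 20.7, 16.6 and 36.8 FPKM, whereas Egr3 had 2 counts in all and Egr2 had 10.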
